A study of Mus musculus with 7 samples.

Results

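Interferon-stimulated genes are transcripts that cells raise when an interferon binds its receptor, and 42 of them are described here in the endometrial epithelium of mice treated with estradiol, tamoxifen, or tamoxifen with alpelisib. They were taken by symbol from a deposited table of 24353 genes, which writes symbols in capitals (RTP4, IFI44, OAS1A, OASL1, ISG15, IFITM1 and so on); each of the 42 has a row. All 42 also had an FPKM of 1 or more in 1 or more of the 7 libraries, the filter that left 12314 genes for testing. FPKM counts the fragments of a gene relative to the length of its transcript and to the size of the library. In the vehicle library 15 of the 42 stood below an FPKM of 1, so these 15 passed the filter only because a treated library was higher.

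The mice were C57BL/6 females whose ovaries were removed at 6 to 7 weeks of age, so no group had hormones from its own ovaries. Of 18 such animals, 6 per arm were assigned to vehicle (estrogen deprivation), to tamoxifen at 0.5 mg per day under the skin in peanut oil, or to tamoxifen at that dose with alpelisib by mouth at a daily 30 mg/kg, and were treated for 28 days. Another 2 mice carried an estradiol pellet of 0.01 mg, made to release over 60 days, for 28 days. The 7 libraries of total RNA from epithelial endometrial cells comprise 1 of vehicle and 2 each of estradiol, tamoxifen, and tamoxifen with alpelisib (below, the combination); the mouse numbers 1 and 2 name the libraries within a group. The sources used here do not state how the epithelium was separated, nor whether the vehicle library holds RNA of 1 mouse or of several. Tamoxifen binds estrogen receptors and behaves partly as an estrogen in uterine tissue, while alpelisib blocks the alpha catalytic subunit of the lipid kinase PI3K.

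Type I and type III interferons act through the kinases Jak1 and Tyk2 on STAT proteins, Stat2 among them, which join Irf9 and bind a DNA element known as the interferon-stimulated response element (ISRE). Type II interferon acts through Jak1 and Jak2 on paired STAT proteins, which bind the gamma-activated site (GAS). The induced genes encode sensors of viral nucleic acid, transcription factors that amplify the response, and effectors that degrade, tether or modify viral components. In the uterus, the epithelium is known for a hormone-dependent interferon of its own, interferon epsilon (Ifne), and for interferon-stimulated genes that change around implantation.

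Depth estimated from the smallest nonzero values of genes with a single transcript lay between 17.6 and 20.9 M fragments per library, although in estradiol library 2 only 19 such genes stood at that smallest value, against 96 to 153 elsewhere. At that depth an FPKM of 1 over 2 kb corresponds to 35.1 to 41.8 fragments. Estradiol library 2 also had the lowest sum of FPKM (264322, against 320527 to 403562 in the others) and the highest FPKM of the ribosomal RNA precursor Rn45s (2276, against 189 to 764). The epithelial markers Epcam (201.9 to 289.2), Krt8 (769 to 2295) and Krt18 (403 to 1542) were high in every library, whereas Foxa2, a marker of uterine glands, had an FPKM of 0.334 to 1.38. Between the 2 libraries of a group, the larger value of a member was at the median 1.21 times the smaller with estradiol, 1.27 times with tamoxifen and 1.07 times with the combination, close to the 1.25, 1.21 and 1.10 over all tested genes; the widest ratio was 3.59, for Mx1 with estradiol.

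The sequences upstream of the genes were searched for the ISRE and the GAS. RefSeq promoters (mouse build GRCm38.p6, the 250 bases before a gene's start) matched 33 of the 42 members. An ISRE core, searched as GAAANNGAAA on both strands, lay within 250 bases of the start in 15 of the 33 (45.5%), against 3.46% of 27025 genes with a promoter entry, and a GAS, searched as TTCNNNGAA, in 9 of the 33 (27.3%), against 8.13%. A match is a run of letters and not a shown binding site. The 160 bases before the start are printed for 8 members that recur in the results below, 5′ to 3′ on the strand of the gene, with ISRE cores in capitals (TTTC at the left end marks a core on the other strand). Isg15 (chr4:156200819-156200978, minus strand) has 3 overlapping matches, and the one nearest the start begins 66 bases before it. Oas1a (chr5:120907526-120907685, minus strand) and Oas1g (chr5:120887614-120887773, minus strand) have 2 each, with the nearest at 14 and 12 bases. Ifit1 (chr19:34640729-34640888, plus strand), Ifit3 (chr19:34583369-34583528, plus strand) and Gbp3 (chr3:142559884-142560043, plus strand) also have 2 each, with the nearest at 85, 122 and 39 bases. Gbp3 has another promoter entry (chr3:142560106-142560355) without an ISRE core, and the entry with more matches is printed. Ifitm1 (chr7:140967916-140968075, plus strand) and Ifitm3 (chr7:141010745-141010904, minus strand) are shown because they moved against the rest, and neither window holds these letters. Members that rose in all 3 treated groups, such as Irf7, Oasl1 and Oasl2, had no core either and are not printed.
Isg15: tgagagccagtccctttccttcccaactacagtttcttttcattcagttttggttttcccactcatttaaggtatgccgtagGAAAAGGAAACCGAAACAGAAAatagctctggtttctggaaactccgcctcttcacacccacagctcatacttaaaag
Oas1a: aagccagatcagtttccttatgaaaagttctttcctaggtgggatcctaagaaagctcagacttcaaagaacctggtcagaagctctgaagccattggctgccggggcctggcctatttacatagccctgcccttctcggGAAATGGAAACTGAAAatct
Oas1g: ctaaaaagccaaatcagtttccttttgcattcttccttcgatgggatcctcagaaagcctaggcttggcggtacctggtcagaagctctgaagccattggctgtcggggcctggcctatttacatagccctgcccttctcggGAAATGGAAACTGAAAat
Ifit1: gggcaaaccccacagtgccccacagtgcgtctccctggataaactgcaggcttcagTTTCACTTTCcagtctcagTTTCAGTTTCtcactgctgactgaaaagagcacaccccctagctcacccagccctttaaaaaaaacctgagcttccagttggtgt
Ifit3: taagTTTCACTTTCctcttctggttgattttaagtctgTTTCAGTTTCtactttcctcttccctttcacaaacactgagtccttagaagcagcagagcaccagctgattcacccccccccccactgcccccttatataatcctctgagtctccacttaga
Gbp3: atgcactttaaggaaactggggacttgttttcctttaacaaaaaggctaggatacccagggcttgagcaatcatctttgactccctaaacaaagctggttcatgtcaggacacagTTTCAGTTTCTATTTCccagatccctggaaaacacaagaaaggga
Ifitm1: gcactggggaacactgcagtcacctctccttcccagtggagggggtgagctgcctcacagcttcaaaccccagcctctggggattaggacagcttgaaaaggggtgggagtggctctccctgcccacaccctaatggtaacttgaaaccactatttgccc
Ifitm3: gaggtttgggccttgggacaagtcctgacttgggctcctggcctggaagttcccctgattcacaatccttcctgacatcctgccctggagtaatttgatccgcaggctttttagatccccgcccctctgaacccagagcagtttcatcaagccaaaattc

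Of the 15 members with an ISRE core in this window, 9 rose against vehicle in all 3 treated groups, and of the 18 without one, 10 did. The vehicle library was below all 6 treated libraries in 14 of the 15 and in 13 of the 18. The other 9 members, Rtp4, Parp14, Iigp1, Oas2, Usp18, Mx1, Zbp1, Mx2 and Dhx58, were not among the promoters searched.

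Against the vehicle library the interferon-stimulated genes were higher in nearly every treated library. A difference is called here when its adjusted p is under 0.05 in limma, fitted on log2(FPKM + 1) over all 7 libraries, with Benjamini-Hochberg adjustment over the 12314 genes. The spread is pooled over the groups. Leaving out a library of a group outside the comparison therefore keeps the log2 fold change. It alters only the pooled spread, its degrees of freedom and the genes tested. The members were chosen with earlier results of these data known, so the shares over all genes describe the background and are no independent test. With estradiol 36 of the 42 members rose and 0 fell, against 22.7% and 12.8% of all tested genes, and 38 had an unadjusted p under 0.05. With tamoxifen 29 rose and 2 fell, against 14.9% and 24.1% of all tested genes. With the combination 32 rose and 2 fell, against 13.1% and 21.8%. The members' median log2 fold change was 1.80 with estradiol, 1.29 with tamoxifen and 1.63 with the combination, beside 0.12, -0.12 and -0.15 over all tested genes. In total 25 members rose in all 3 comparisons, 9 in 2 of them, 4 in 1 and 4 in none (Ifitm1, Ifitm3, Gbp7 and Cxcl10).

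**Figure D1:**
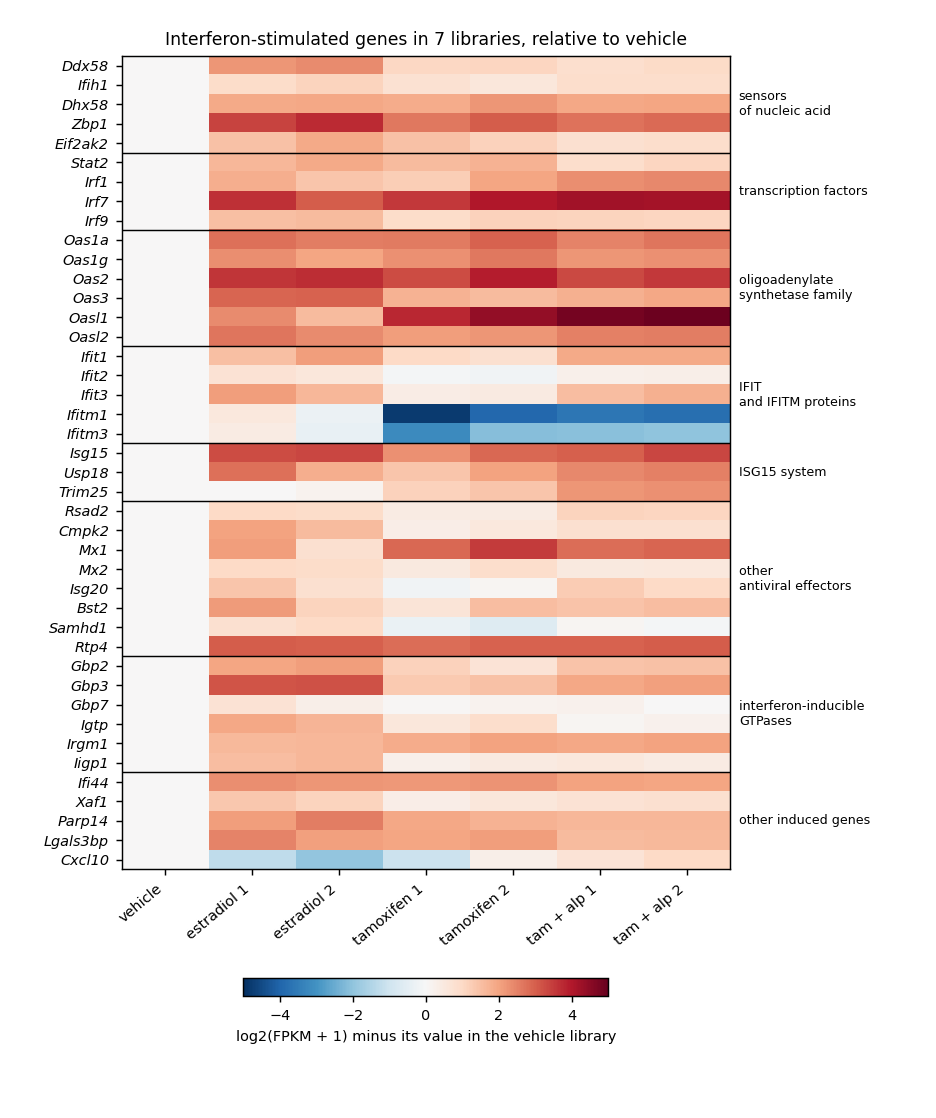
Each row is a gene, grouped by role, and each column a library; colour gives log2(FPKM + 1) minus the value in the vehicle library, red for higher and blue for lower. Most rows are red in all 6 treated columns, while Ifitm1 and Ifitm3 are blue in the tamoxifen and combination columns and Cxcl10 is blue in the estradiol columns.

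All 3 of these comparisons use the same single vehicle library, so they are not independent of each other, and its spread was taken from the other groups. The vehicle value was the lowest of the 7 for 36 of the 42 members, against 20.4% of all tested genes, and the highest for 0, against 23.2%. The 6 exceptions were Ifit2, Ifitm1, Ifitm3, Isg20, Samhd1 and Cxcl10. For the 15 members below an FPKM of 1 in vehicle, the filter itself kept vehicle from being the highest and favoured its being the lowest. Among the 27 members at an FPKM of at least 1 in vehicle, for which the filter did not require a rise, 23 rose with estradiol, 20 rose and 2 fell with tamoxifen, and 21 rose and 2 fell with the combination. With median-of-ratios scaling, which brings the median over all genes to between 0.00 and 0.02 against vehicle, the counts were 35 higher and 1 lower (Cxcl10), 32 and 2, and 34 and 2. Shares over all genes were computed neither for genes at an FPKM of at least 1 in vehicle nor under this scaling. As bulk RNA was measured, fewer cells of a type and less RNA per cell cannot be told apart.

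**Figure D2:**
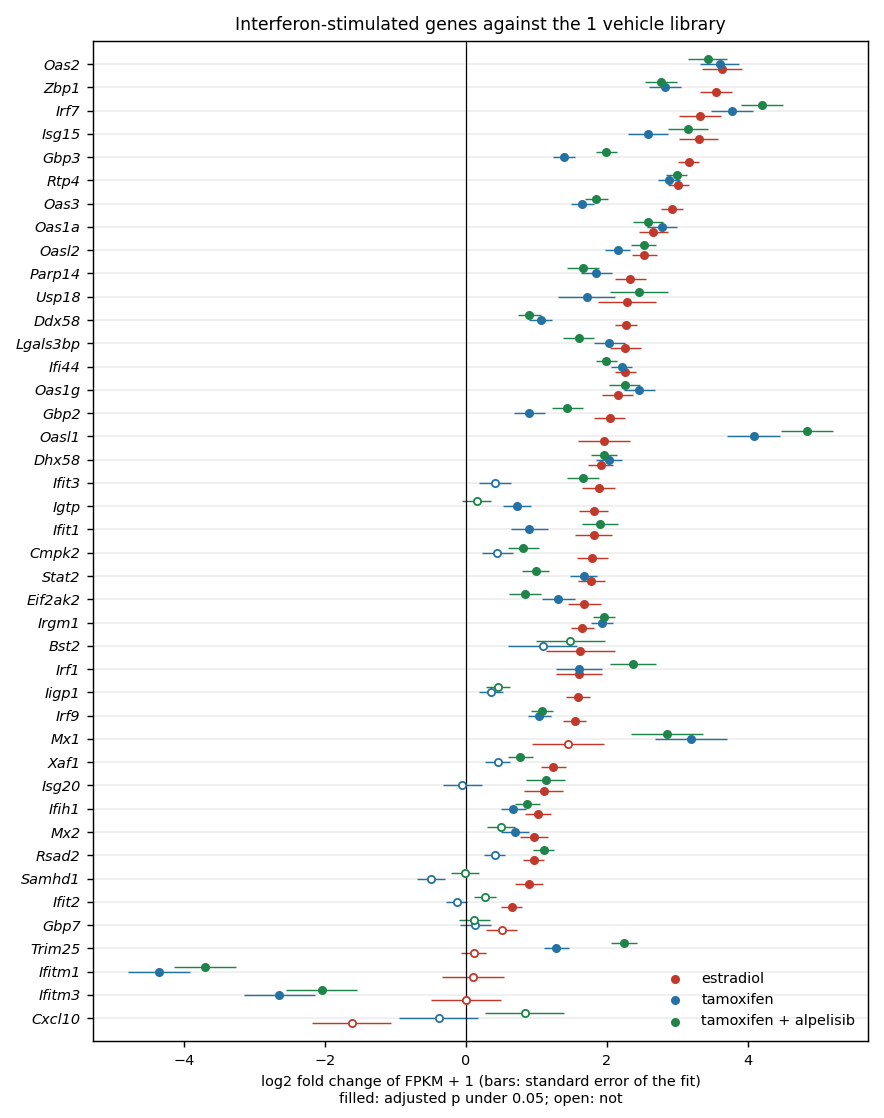
Points are log2 fold changes of FPKM + 1 against the 1 vehicle library for the 42 genes, ordered by the estradiol value, with bars for the standard error of the fit; filled points have an adjusted p under 0.05. Points lie to the right of 0 for most genes in all 3 groups, from Oas2 and Zbp1 at the top, while Ifitm1 and Ifitm3 lie far to the left for tamoxifen (-4.35 and -2.65) and the combination.

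All 5 sensors of nucleic acid rose in each of the 3 comparisons with vehicle. Zbp1, which binds nucleic acid in the Z form and can trigger cell death, had 0.925 FPKM in vehicle, 18.9 and 24.6 with estradiol, 11.0 and 14.5 with tamoxifen, and 11.7 and 12.6 with the combination. Both estradiol libraries were the highest, and every treated library was above vehicle, with log2 fold changes of 3.55 ± 0.23 (SE), 2.82 ± 0.23 and 2.77 ± 0.23 (adjusted p = 0.000469, 0.00039 and 0.000485). Ddx58, which encodes the RNA sensor RIG-I, stood at 1.90 in vehicle, 12.3 and 13.7 with estradiol, 4.89 and 5.17 with tamoxifen, and 4.24 and 4.60 with the combination. Its estradiol values lay above all others without overlap (2.27 ± 0.16 against vehicle, adjusted p = 0.000513), and the rise was smaller with tamoxifen (1.06 ± 0.16, 0.00327) and with the combination (0.90 ± 0.16, 0.00692). Eif2ak2, the kinase PKR that halts translation on binding double-stranded RNA, went from 2.55 to 8.81 and 12.2, to 8.72 and 6.94, and to 5.14 and 5.59 in the same order. Estradiol lay just above tamoxifen and the combination was lower than both, without overlap, at 1.68 ± 0.23, 1.31 ± 0.23 and 0.84 ± 0.23 against vehicle (adjusted p = 0.00366, 0.00643 and 0.0337). In the combination, the call for Ddx58 ended without combination library 2 (adjusted p = 0.0589), and that for Eif2ak2 without library 1 or 2 (0.115 and 0.144). Ifih1 (the sensor MDA5) and Dhx58 (LGP2), the other 2 genes of the group, rose by 0.67 to 1.02 and by 1.91 to 2.03; for Ifih1 the tamoxifen call ended without tamoxifen library 1 (0.0884) or either combination library (0.0703 and 0.0695), and the combination call without either combination library (0.0733 and 0.0711).

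The 4 transcription factors among the members rose in every comparison with vehicle as well. Irf7, which drives production of interferon alpha, had the largest log2 fold changes of the 4, with an FPKM of 1.63 in vehicle, 31.8 and 20.2 with estradiol, 29.9 and 41.0 with tamoxifen, and 47.9 and 46.5 with the combination. The combination libraries were the highest and vehicle the lowest, with estradiol and tamoxifen overlapping, and the log2 fold changes were 3.32 ± 0.30, 3.77 ± 0.30 and 4.20 ± 0.30 (adjusted p = 0.000972, 0.000366 and 0.00031). Irf1, an activator downstream of type II interferon, was at 10.3 in vehicle, 39.2 and 28.2 with estradiol, 25.6 and 42.9 with tamoxifen, and 55.5 and 58.9 with the combination. Its combination values were again the highest (2.37 ± 0.33 against vehicle, adjusted p = 0.0034), and estradiol and tamoxifen overlapped, both at 1.60 ± 0.33 (0.0136 and 0.0116). Irf9, the DNA-binding partner of Stat2, went from 6.54 in vehicle to 20.4 and 21.4, to 13.4 and 15.7, and to 15.1 and 14.8. Here estradiol was the highest without overlap, at 1.54 ± 0.16, followed by 1.04 ± 0.16 with tamoxifen and 1.08 ± 0.16 with the combination (adjusted p = 0.00158, 0.00414 and 0.00434). Stat2 rose by 1.78 ± 0.19 with estradiol, 1.67 ± 0.19 with tamoxifen and 0.99 ± 0.19 with the combination, and the last of these calls ended without combination library 2 (adjusted p = 0.0662).

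The oligoadenylate synthetases make a messenger that activates the ribonuclease RNase L, and all 6 members of the family rose in each comparison with vehicle. Oas1a had 3.56 FPKM in vehicle, 29.5 and 26.1 with estradiol, 26.5 and 34.6 with tamoxifen, and 24.3 and 28.2 with the combination. The 3 treated groups overlapped and all lay above vehicle, at 2.66 ± 0.21, 2.78 ± 0.21 and 2.58 ± 0.21 (adjusted p = 0.000741, 0.000321 and 0.000484). Of the 50-base stretches of the Oas1a transcript, 57.6% also occur in Oas1g, so fragments could be split between these copies, and the sources used here do not say how they were assigned. Oasl2, a relative that keeps synthetase activity in the mouse, stood at 3.04 in vehicle, 25.0 and 19.8 with estradiol, 16.4 and 17.5 with tamoxifen, and 21.9 and 22.5 with the combination. Tamoxifen was the lowest treated group by a narrow margin, with 2.53 ± 0.18, 2.15 ± 0.18 and 2.52 ± 0.18 (adjusted p = 0.0006, 0.000452 and 0.000313). Oas2 had the lowest vehicle values of the family together with Oas3: 0.269 and 0.103, which correspond to few fragments, against 11.3 to 18.2 and 2.30 to 7.42 in the treated libraries.

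Oasl1 departed from its family in the order of the groups. This gene, whose product is known to hold back translation of Irf7 in the mouse, had 1.42 FPKM in vehicle, 11.4 and 6.17 with estradiol, 32.1 and 49.4 with tamoxifen, and 66.0 and 70.7 with the combination. None of the 4 groups overlapped, and the log2 fold changes against vehicle were 1.96 ± 0.37, 4.08 ± 0.37 and 4.84 ± 0.37 (adjusted p = 0.0104, 0.000594 and 0.00038). Oas3 had estradiol in another place, above both other treated groups, with 7.31 and 7.42 with estradiol, 2.65 and 2.30 with tamoxifen, and 2.75 and 3.23 with the combination. Estradiol thus stood apart for Oas3 (2.92 ± 0.16 against vehicle, adjusted p = 0.000421), above 1.65 ± 0.16 and 1.85 ± 0.16 in the other 2 groups (0.000782 and 0.000598).

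**Figure D3:**
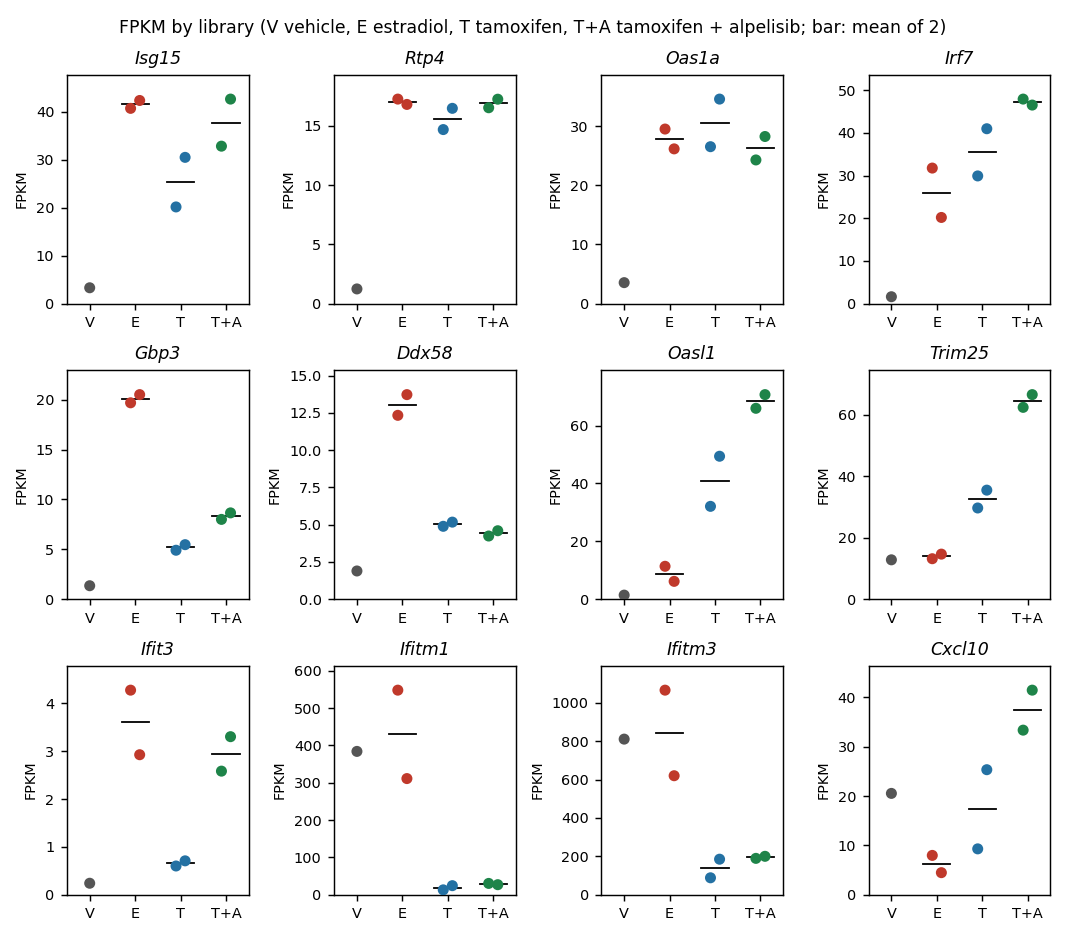
Each panel plots the FPKM of a gene, on a linear axis from 0, in the 7 libraries (V vehicle, E estradiol, T tamoxifen, T+A tamoxifen with alpelisib), with a bar at the mean of 2 libraries. Isg15, Rtp4, Oas1a and Irf7 are high in all treated groups, Gbp3 and Ddx58 are highest with estradiol, Oasl1 and Trim25 are highest with the combination, Ifit3 is low with tamoxifen alone, and Ifitm1 and Ifitm3 are lowest in the 4 libraries given tamoxifen.

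The IFIT and IFITM genes split into members that rose and members that fell. Ifit1, which binds viral RNA with an incompletely methylated cap, had 2.30 FPKM in vehicle, 8.43 and 13.2 with estradiol, 5.63 and 4.69 with tamoxifen, and 11.2 and 11.4 with the combination. Tamoxifen alone was the lowest treated group, without overlap, and the log2 fold changes were 1.81 ± 0.26, 0.90 ± 0.26 and 1.90 ± 0.26 (adjusted p = 0.00413, 0.0353 and 0.00302). The tamoxifen call for Ifit1 ended without tamoxifen library 1 or 2 (0.116 and 0.0617) and without combination library 1 or 2 (0.0765 and 0.0751). Ifit3, its partner in a shared complex, stood at 0.241 in vehicle, 4.28 and 2.93 with estradiol, 0.601 and 0.709 with tamoxifen, and 2.58 and 3.30 with the combination. Estradiol and the combination overlapped and rose (1.88 ± 0.23 and 1.66 ± 0.23, adjusted p = 0.00249 and 0.0031), while tamoxifen stood at 0.41 ± 0.23 (0.197, and 0.0363 with a pseudocount of 0.1). Of the 50-base stretches of Ifit3, 51.2% also occur in Ifit3b, so its level is uncertain.

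Ifitm1 and Ifitm3 encode membrane proteins that block viral fusion, were the most abundant members, and fell in the 2 groups given tamoxifen. Ifitm1 had 384 FPKM in vehicle, 548 and 311 with estradiol, 13.2 and 24.4 with tamoxifen, and 30.4 and 27.0 with the combination. Vehicle lay between the estradiol libraries (0.10 ± 0.44, adjusted p = 0.876), and the 4 libraries with tamoxifen lay far below all others, at -4.35 ± 0.44 and -3.70 ± 0.44 (0.000871 and 0.00186). Ifitm3 followed the same order at 811 in vehicle, 1066 and 620.2 with estradiol, 88.4 and 185 with tamoxifen, and 189.6 and 200.3 with the combination. Its vehicle value again lay between those of estradiol (0.00 ± 0.50), and the log2 fold changes with tamoxifen and the combination were -2.65 ± 0.50 and -2.05 ± 0.50 (adjusted p = 0.00838 and 0.0234); the second call ended without combination library 1 or 2 (0.107 and 0.0926). The small estradiol differences of both genes turned negative with median-of-ratios scaling (-0.06 and -0.16) and without estradiol library 1 (-0.30 and -0.39). Ifit2 had a low level in every library, from 0.295 to 1.39, and rose with estradiol (0.65 ± 0.15, adjusted p = 0.0215). That call ended with quantile normalization (0.43, adjusted p = 0.0841, limma) and with only the compared groups in the fit. It also ended without combination library 1 or 2, where the value stayed at 0.65.

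The ISG15 system attaches a ubiquitin-like protein to others. Isg15 itself had 3.31 FPKM in vehicle, 40.7 and 42.3 with estradiol, 20.1 and 30.5 with tamoxifen, and 32.8 and 42.6 with the combination. The tamoxifen libraries were the lowest of the treated ones, all far above vehicle, with 3.30 ± 0.28, 2.58 ± 0.28 and 3.15 ± 0.28 (adjusted p = 0.000826, 0.00106 and 0.000591). Usp18, the protease that removes Isg15 and dampens signaling from the type I receptor, stood at 0.647, then 9.99 and 4.83 with estradiol, 3.35 and 5.70 with tamoxifen, and 7.80 and 8.38 with the combination. Estradiol overlapped the other 2 treated groups, which did not overlap each other, and the rise was 2.28 ± 0.41, 1.71 ± 0.41 and 2.46 ± 0.41 (0.00848, 0.0189 and 0.00608); the tamoxifen call ended without tamoxifen library 2 (0.0665). Trim25, a ubiquitin ligase that acts on RIG-I and is also known as estrogen-responsive finger protein, differed from both: 12.8 in vehicle, 13.2 and 14.7 with estradiol, 29.7 and 35.5 with tamoxifen, and 62.4 and 66.5 with the combination. Estradiol was near vehicle (0.11 ± 0.18, adjusted p = 0.669; -0.05 with median-of-ratios scaling), and the other groups were higher in 2 separate steps (1.28 ± 0.18 and 2.24 ± 0.18, 0.00287 and 0.000437).

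Among the 8 other antiviral effectors, 7 rose with estradiol, 3 with tamoxifen and 5 with the combination. Rtp4, a chaperone of membrane receptors that also binds viral RNA, was the most even member, at 1.25 in vehicle, 17.2 and 16.8 with estradiol, 14.7 and 16.5 with tamoxifen, and 16.5 and 17.2 with the combination. All 6 treated values lay within a narrow range far above vehicle (3.01 ± 0.15, 2.88 ± 0.15 and 2.99 ± 0.15, adjusted p = 0.000421, 0.000101 and 0.000102), and 13.6% of its 50-base stretches also occur in the predicted gene Gm45338. Bst2, which tethers budding virus to the cell, had 45.1 in vehicle, 198.8 and 99.6 with estradiol, 71.9 and 132 with tamoxifen, and 123.8 and 132 with the combination. Every treated value was above vehicle, with replicates far apart for estradiol and tamoxifen and close for the combination, and the change was called with estradiol (1.62 ± 0.49, 0.0445) and missed the threshold with tamoxifen (1.09 ± 0.49, 0.125) and the combination (1.48 ± 0.49, 0.0586). The estradiol call for Bst2 ended without estradiol library 1 (0.103) or combination library 1 or 2 (0.0884 and 0.0868), whereas a combination call appeared without estradiol library 1 or 2 (0.0374 and 0.039) or tamoxifen library 2 (0.0491). With only the compared groups in the fit, the estradiol call ended (0.0905) and the combination was called (0.000984); with median-of-ratios scaling Bst2 was called with both tamoxifen (0.0468) and the combination (0.0213).

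Isg20, an exonuclease that degrades single-stranded RNA, had 9.07 FPKM in vehicle, 25.6 and 16.5 with estradiol, 7.87 and 9.73 with tamoxifen, and 23.1 and 19.2 with the combination. The tamoxifen libraries fell on either side of vehicle (-0.05 ± 0.28, adjusted p = 0.914; 0.13 with median-of-ratios scaling and 0.09 without tamoxifen library 1), and estradiol and the combination rose, by 1.10 ± 0.28 and 1.13 ± 0.28 (0.0269 and 0.0243). Both calls ended without combination library 1 (0.0569 and 0.122) or 2 (0.056 and 0.070). Samhd1, which depletes the nucleotides that retroviruses need, stood at 4.79 in vehicle, 9.06 and 10.4 with estradiol, 3.58 and 2.66 with tamoxifen, and 5.16 and 4.37 with the combination. It rose with estradiol (0.89 ± 0.20, adjusted p = 0.0184), a call that ended without estradiol library 2 (0.0608) and with median-of-ratios scaling (0.0534); both tamoxifen values were below vehicle without reaching the threshold (-0.50 ± 0.20, 0.0985). The combination lay on both sides of vehicle for Samhd1 (-0.01 ± 0.20, 0.977). The RNA of Mx1 rose with tamoxifen and the combination (3.19 ± 0.51 and 2.85 ± 0.51, adjusted p = 0.00443 and 0.00782). Its estradiol values of 4.18 and 1.17, above 0.228 in vehicle, gave 1.45 ± 0.51 (0.0691), and 2.08 without estradiol library 2. Rsad2 (viperin) and Cmpk2, a mitochondrial nucleotide kinase, rose with estradiol (0.96 ± 0.15 and 1.79 ± 0.22) and the combination (1.10 ± 0.15 and 0.81 ± 0.22), the last call ending without combination library 1 or 2 (0.128 and 0.123). Mx2 rose with estradiol (0.97 ± 0.20) and tamoxifen (0.69 ± 0.20), the second call ending without tamoxifen library 2 (0.101) or either combination library (0.0781 in both cases).

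Of the 6 interferon-inducible GTPases, which attack the vacuoles of intracellular pathogens, 5 rose with estradiol, 4 with tamoxifen and 3 with the combination. Irgm1, a regulator within this family, had 4.13 FPKM in vehicle, 14.7 and 15.4 with estradiol, 17.4 and 19.7 with tamoxifen, and 18.4 and 19.6 with the combination. Estradiol was the lowest of the treated groups and all 6 treated libraries were well above vehicle, at 1.65 ± 0.16, 1.93 ± 0.16 and 1.96 ± 0.16 (adjusted p = 0.00117, 0.000397 and 0.000438). Gbp2, a guanylate-binding protein, stood at 3.42 in vehicle, 16.6 and 17.9 with estradiol, 8.70 and 6.05 with tamoxifen, and 10.8 and 11.2 with the combination. The groups of Gbp2 did not overlap, with estradiol highest (2.04 ± 0.22, 0.00158), then the combination (1.44 ± 0.22, 0.00429) and tamoxifen (0.90 ± 0.22, 0.019); the tamoxifen call ended without combination library 1 or 2 (0.0513 and 0.0505). Gbp3 had the same order in sharper form: 1.35 in vehicle, 19.7 and 20.5 with estradiol, 4.91 and 5.47 with tamoxifen, and 8.0 and 8.66 with the combination. Its log2 fold changes were 3.16 ± 0.15, 1.39 ± 0.15 and 1.99 ± 0.15 (adjusted p = 0.000373, 0.00116 and 0.00038), with no overlap between groups.

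Igtp, a relative of Irgm1, had 1.45 FPKM in vehicle, 8.25 and 6.92 with estradiol, 2.65 and 3.48 with tamoxifen, and 1.63 and 1.82 with the combination. Estradiol was far above the rest (1.81 ± 0.20, adjusted p = 0.00169) and the combination was close to vehicle (0.15 ± 0.20, 0.58), while the tamoxifen call (0.72 ± 0.20, 0.0286) ended without tamoxifen library 2 (0.0906) or combination library 1 or 2 (0.0688 and 0.0678). Iigp1, which marks parasite vacuoles for rupture, stood at 0.241, then 2.59 and 2.89 with estradiol, 0.466 and 0.713 with tamoxifen, and 0.768 and 0.655 with the combination. It rose with estradiol (1.59 ± 0.17, 0.00169) and its other 2 differences, 0.35 ± 0.17 and 0.46 ± 0.17, did not pass (0.154 and 0.0822). Gbp7 passed in no comparison, at 0.551 to 1.56 in the 7 libraries.

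The last group holds induced genes of other functions. Lgals3bp, a secreted protein that binds galectin, had 11.2 FPKM in vehicle, 67.1 and 48.9 with estradiol, 46.9 and 50.9 with tamoxifen, and 35.8 and 36.4 with the combination. Estradiol and tamoxifen overlapped and the combination lay below both, with 2.26 ± 0.22, 2.03 ± 0.22 and 1.60 ± 0.22 against vehicle (adjusted p = 0.00123, 0.00111 and 0.00313). Parp14, an ADP-ribosyltransferase, stood at 1.40 in vehicle, 9.28 and 13.2 with estradiol, 8.25 and 7.06 with tamoxifen, and 6.59 and 6.56 with the combination. The order of the 3 treated groups of Parp14 was the same without overlap (2.33 ± 0.22, 1.85 ± 0.22 and 1.66 ± 0.22, adjusted p = 0.00117, 0.00168 and 0.00299). Ifi44 rose evenly, by 2.26 ± 0.15, 2.21 ± 0.15 and 1.99 ± 0.15. Xaf1, a partner of apoptosis inhibitors, rose with estradiol (1.24 ± 0.18) and with the combination (0.77 ± 0.18), the latter not without combination library 1 or 2 (0.0874 and 0.111). Cxcl10, the chemokine that draws T cells through Cxcr3, went against the others: 20.5 in vehicle, 7.97 and 4.48 with estradiol, 9.30 and 25.3 with tamoxifen, and 33.3 and 41.4 with the combination. Estradiol was below vehicle, tamoxifen on both sides of it and the combination above it, and none of the 3 differences passed (-1.62 ± 0.56, -0.39 ± 0.56 and 0.83 ± 0.56, adjusted p = 0.0656, 0.617 and 0.297). The estradiol difference of Cxcl10 was called with median-of-ratios scaling (0.0322) and without tamoxifen library 1 or 2 (0.0213 and 0.0206), the combination difference with only the compared groups in the fit (0.0131), and the tamoxifen value turned to 0.29 without tamoxifen library 1.

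Between the treated groups, single members moved far in both directions. Tamoxifen against estradiol gave 3 members higher (7.14%) and 19 lower (45.2%), against 12.3% and 36.2% of all tested genes, with a median log2 fold change of -0.49 beside -0.26 over all genes. The combination against estradiol gave 5 higher (11.9%) and 19 lower (45.2%), against 15.7% and 37.5%, with medians of -0.24 and -0.26. The shares lower are near those of all genes in both comparisons. These splits depended on the scaling: with median-of-ratios factors, which bring the median of all genes to 0.01, the first became 9 higher and 14 lower and the second 9 and 10, with member medians of -0.16 and 0.05. With quantile normalization they were 6 and 17, and 8 and 11 (medians of -0.27 and -0.07). Without combination library 1 or 2, the calls of the second fell from 24 to 11 and 13. On the unscaled values the highest group mean was that of estradiol for 28 members, of the combination for 10 and of tamoxifen for 4. The median-of-ratios factors were 1.229 and 1.149 for estradiol and 0.883 to 0.968 for the other treated libraries. Neither the count of highest means nor the rescaled splits were computed over all tested genes.

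**Figure D4:**
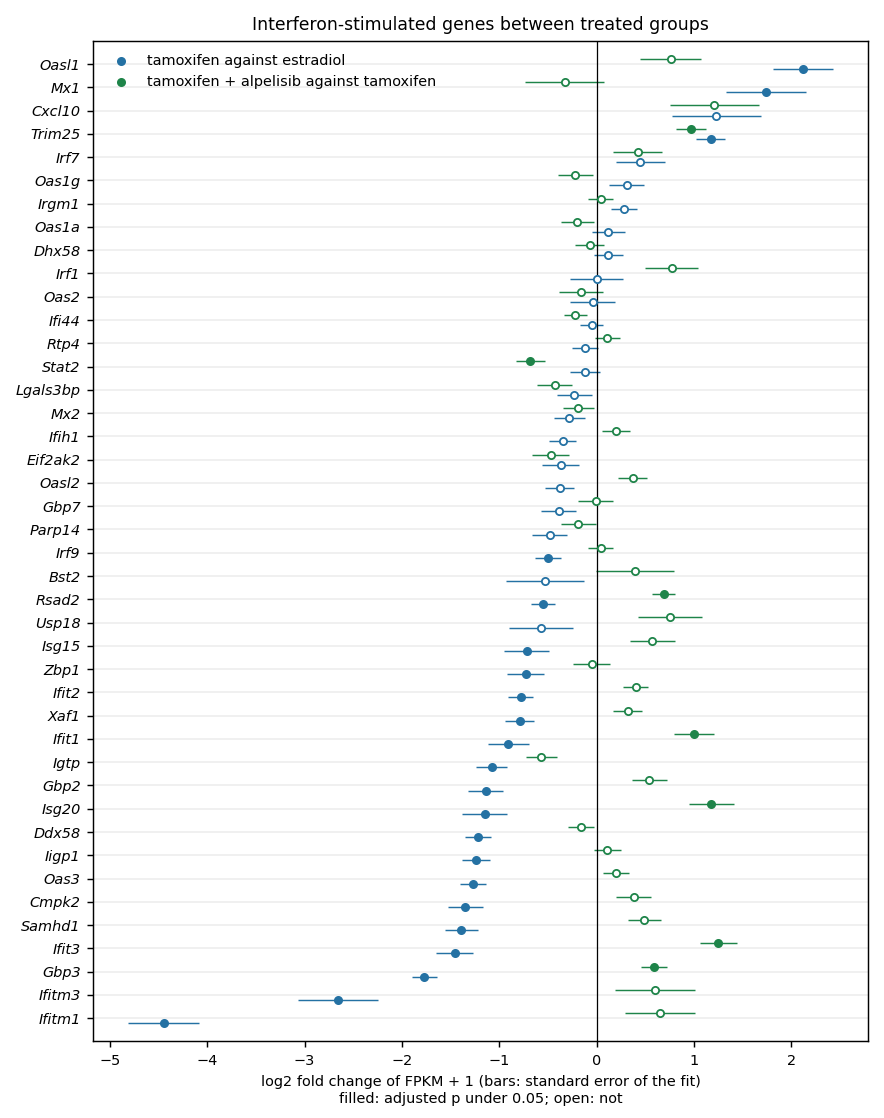
Points are log2 fold changes of FPKM + 1 with the standard error of the fit, for tamoxifen against estradiol (blue) and for the combination against tamoxifen (green); filled points have an adjusted p under 0.05. The blue points run from Oasl1 at 2.12 down to Ifitm1 at -4.45, and the green points lie between -0.68 (Stat2) and 1.25 (Ifit3).

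With tamoxifen, 2 of 5 sensors, 4 of 6 GTPases and 4 of 8 other antiviral effectors were called lower than with estradiol. So were 5 of 5 IFIT and IFITM genes and 1 gene in each other role. Over all tested genes 36.2% were lower, and the values here are unscaled, with an all-gene median of -0.26. Of the 2 sensors, Ddx58 and Zbp1, the call for Zbp1 ended with median-of-ratios scaling (-0.39, adjusted p = 0.124, limma). Gbp3 fell by 1.77 ± 0.13 on the log2 scale (adjusted p = 0.000265), Ddx58 by 1.22 ± 0.13 (0.000825), Oas3 by 1.27 ± 0.13 (0.000862) and Iigp1 by 1.24 ± 0.14 (0.00108). Ifitm1 fell by 4.45 ± 0.36 (0.000359) and Ifitm3 by 2.66 ± 0.41 (0.00336). Samhd1, Cmpk2 and Ifit3 differed by -1.39 ± 0.17, -1.35 ± 0.18 and -1.46 ± 0.19, and Igtp by -1.08 ± 0.16 (adjusted p = 0.0013, 0.00198, 0.00164 and 0.0028). In the other direction, Oasl1 (2.12 ± 0.31, 0.00258), Trim25 (1.17 ± 0.15, 0.0016) and Mx1 (1.74 ± 0.41, 0.0155) were higher with tamoxifen, the last call ending without tamoxifen library 2 (0.0834). Rtp4, Ifi44, Oas1a, Oas2, Dhx58 and Irf1 had log2 differences between -0.12 and 0.12.

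The combination was set against the same 2 estradiol libraries, so its values stand beside those of tamoxifen without being independent of them. Trim25 was higher by 2.13 ± 0.15 (adjusted p = 0.000199), Oasl1 by 2.88 ± 0.31 (0.000721) and Cxcl10 by 2.45 ± 0.46 (0.00533). Ifitm1 was at -3.80 ± 0.36 (0.000499) and Igtp at -1.65 ± 0.16 (0.000535), followed by Ddx58 at -1.37 ± 0.13 (0.00046), Gbp3 at -1.18 ± 0.13 (0.000727) and Oas3 at -1.07 ± 0.13 (0.00127). Irf7 (0.87 ± 0.25, 0.0256) and Mx1 (1.40 ± 0.41, 0.0295) were called higher as well, but their calls ended without estradiol library 2 (0.0949 and 0.0877), combination library 1 (0.117 and 0.0954) or combination library 2 (0.102 and 0.118).

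With alpelisib added to tamoxifen, 6 members rose and 1 fell, against 6.93% and 4.81% of all tested genes, and 17 members had an unadjusted p under 0.05. The members that rose were Ifit3 (1.25 ± 0.19, adjusted p = 0.0127), Isg20 (1.18 ± 0.23, 0.0268), Ifit1 (1.0 ± 0.21, 0.0339), Trim25 (0.97 ± 0.15, 0.0135), Rsad2 (0.69 ± 0.12, 0.0212) and Gbp3 (0.59 ± 0.13, 0.0344). Stat2 fell, by 0.68 ± 0.15 (0.0392). In each of the 7 genes both combination libraries lay outside the range of the tamoxifen libraries on the same side. The number of calls was 0 without tamoxifen library 1, without combination library 1 and without combination library 2, and 2 without tamoxifen library 2. Without tamoxifen library 1 the adjusted p of the 7 genes lay between 0.0681 (Trim25) and 0.132 (Gbp3). Without combination library 1 it lay between 0.0866 (Ifit3) and 0.279 (Stat2), and without tamoxifen library 2 Trim25 was still called.

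The rest of the pathway was read from a list of 71 other interferon pathway genes, of which 46 passed the filter. Against vehicle 15 of the 46 rose and 3 fell with estradiol, 14 rose and 11 fell with tamoxifen, and 17 rose and 3 fell with the combination. Over all tested genes the shares were 22.7% and 12.8%, 14.9% and 24.1%, and 13.1% and 21.8% in the same order, so the 11 lower with tamoxifen are a share near that of all genes. Among the ligands, all 13 interferon alpha genes in the list and Ifnab were listed at 0 in every library, and Ifnb1 and Ifng reached at most 0.888 and 0.0991. The type III ligands Ifnl2 and Ifnl3 were at 0 in vehicle and with estradiol. They reached at most 0.893 (combination library 2) and 0.707 (tamoxifen library 2), below the filter. Ifne was the only ligand to pass the filter, at 2.55 in vehicle, 5.89 and 3.85 with estradiol, 9.11 and 13.2 with tamoxifen, and 22.6 and 28.8 with the combination. The 4 groups of Ifne did not overlap, and it rose with tamoxifen (1.76 ± 0.31, adjusted p = 0.00605) and with the combination (2.90 ± 0.31, 0.00118). It was also higher with tamoxifen than with estradiol (1.06 ± 0.25, 0.015), a call that ended without estradiol library 2 (0.0759) or tamoxifen library 2 (0.0745). The combination exceeded tamoxifen for Ifne by 1.14 ± 0.25 (0.0374), a call that ended without any 1 of those 4 libraries (0.0565 to 0.248).

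The receptor genes differed among themselves. Ifngr2, a chain of the interferon gamma receptor, had 6.90 FPKM in vehicle, 64.0 and 60.4 with estradiol, 76.5 and 65.8 with tamoxifen, and 56.7 and 59.0 with the combination, all treated values far above vehicle (3.0 ± 0.18, 3.19 ± 0.18 and 2.90 ± 0.18, adjusted p = 0.000421, 0.000109 and 0.000168). Il10rb, shared with the type III receptor, rose with tamoxifen (0.96 ± 0.16, 0.00536) and the combination (1.06 ± 0.16, 0.00451). Stat6, which serves interleukin signaling, rose by 1.11 ± 0.15 to 1.63 ± 0.15.

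Upstream of the ligands, Tmem173, which encodes the adaptor STING, stood at 4.68 in vehicle, 21.7 and 19.2 with estradiol, 37.6 and 41.1 with tamoxifen, and 46.0 and 45.3 with the combination. Vehicle was lowest and the groups did not overlap (1.91 ± 0.16, 2.83 ± 0.16 and 3.04 ± 0.16, adjusted p = 0.000833, 0.00012 and 0.000113). Irak4, a kinase of Toll-like receptor signaling, rose by 1.48 ± 0.16, 1.95 ± 0.16 and 1.45 ± 0.16. Rela, a subunit of NF-kappaB, was instead highest in vehicle at 80.2, and fell with estradiol (-1.50 ± 0.22, adjusted p = 0.00434) and tamoxifen (-1.81 ± 0.22, 0.00161). Of the inhibitors, Tnfaip3, a brake on NF-kappaB, had 8.81 in vehicle, 14.6 and 13.9 with estradiol, 28.7 and 47.0 with tamoxifen, and 188 and 212 with the combination, the highest by far (4.35 ± 0.29 against vehicle, 0.000232). Socs3, a brake on cytokine receptors, fell with tamoxifen (-1.72 ± 0.39, 0.0159). That call ended with no filter on low values (adjusted p = 0.0531, limma) and with only the compared groups in the fit. Nlrc5, a regulator of MHC class I genes, rose with estradiol (1.82 ± 0.27, 0.00449).

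**Figure D5:**
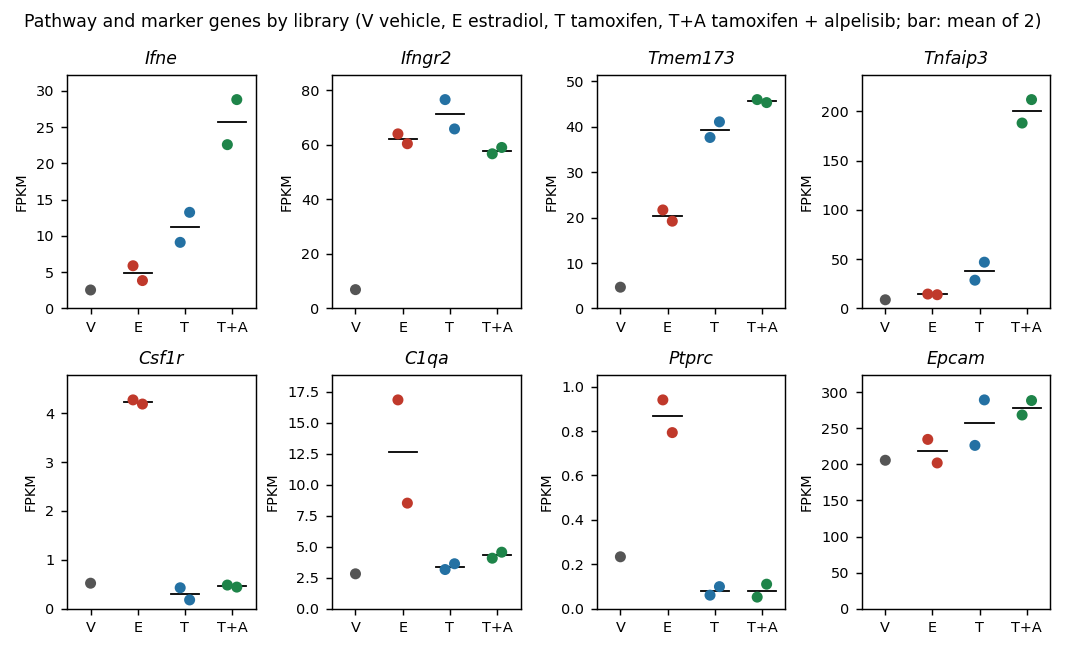
Each panel plots FPKM, on a linear axis from 0, in the 7 libraries for 4 pathway genes (upper row) and 4 cell type markers (lower row), with a bar at the mean of 2 libraries. Ifne, Tmem173 and Tnfaip3 climb from vehicle to the combination, Ifngr2 is high in all treated groups, and Csf1r, C1qa and Ptprc stand out with estradiol. Epcam lies between 201.9 and 289.2 in all libraries, while the sum of the epithelial list is lowest with estradiol.

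Leukocytes also express many of these genes, so their markers are given beside the results. The macrophage list (13 genes, 12 tested) had a summed FPKM of 58.2 in vehicle, 198.4 and 118.7 with estradiol, 111.2 and 131 with tamoxifen, and 173.5 and 175 with the combination. Against vehicle 6 of the 12 rose with estradiol and 0 fell (8 had an unadjusted p under 0.05), and 2 rose and 1 fell with tamoxifen and with the combination. Of tamoxifen against estradiol, 1 was higher and 9 lower, beside 12.3% and 36.2% of all tested genes. Against vehicle, 22.7% of all tested genes were higher and 12.8% lower with estradiol. The shares were 14.9% and 24.1% with tamoxifen, and 13.1% and 21.8% with the combination. Csf1r, chosen with Adgre1, C1qa and Ptprc after its values were seen, had 0.523 FPKM in vehicle, 4.27 and 4.19 with estradiol, and 0.181 to 0.485 in the other 4 libraries, and Adgre1 had 0.278, then 3.32 and 2.36, then 0.151 to 0.449. Other macrophage genes rose with tamoxifen or the combination: Itgam (0.406 in vehicle, 8.80 to 56.0 in the treated libraries) by 5.28 and 4.57 on the log2 scale, Cd68 with tamoxifen by 0.93, and Cd14 (20.8 in vehicle, 31.0 to 104 in the treated libraries) with the combination by 2.26. The pan-leukocyte list (8 genes, 5 tested) summed to 30.1 in vehicle, 72.1 and 61.9 with estradiol, 57.1 and 53.2 with tamoxifen, and 55.3 and 54.6 with the combination. Of the 5, 3 rose and 1 fell with estradiol, 2 rose (Cd52 and Laptm5) and 2 fell (Coro1a and Lcp1) with tamoxifen, and 2 rose and 1 fell with the combination. Ptprc of that list, which did not pass the filter, had 0.234 in vehicle, 0.940 and 0.793 with estradiol, and 0.0525 to 0.111 elsewhere.

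Most lymphocyte markers were below the filter in all libraries. The T and NK cell list summed to 0.352 to 3.88, with 3 to 10 of its 13 genes at 0 and Cd3e at 0 in 6 of the 7 libraries; its 1 tested gene, Lck, had 1.13 in vehicle, 1.72 and 1.69 with estradiol, and 0.183 to 0.481 elsewhere. The B and plasma cell list summed to 0.778 to 2.83, and its 1 tested gene, Cd79b, had 0.461 in vehicle and 0.517 to 2.23 in the treated libraries. The plasmacytoid dendritic cell list (9 genes, 2 tested) summed to 7.99 in vehicle, 18.1 and 12.6 with estradiol, 37.7 and 58.2 with tamoxifen, and 97.8 and 105.2 with the combination. Most of that sum in the treated libraries was Ly6d, which epithelia can also express and which rose by 1.46, 3.32 and 4.45 on the log2 scale, whereas Tcf4 fell with tamoxifen and the combination (-0.98 in both) and the defining gene Siglech had at most 0.0716 and was at 0 in 5 libraries. The neutrophil list summed to 0.557 in vehicle, 4.56 to 9.14 with estradiol or tamoxifen, and 49.0 and 52.6 with the combination, led by S100a9, which epithelia can also express, with Elane at 0 in every library. Stromal genes summed to 281 in vehicle, 224.2 and 210.0 with estradiol, 66.0 and 66.3 with tamoxifen, and 133.6 and 141.9 with the combination, smooth muscle genes to 78.2 in vehicle and 13.8 to 26.4 in the treated libraries, endothelial genes to 16.9 and 3.78 to 13.2, and erythroid genes to 30.4 in vehicle and 73.6 to 1238 in the treated libraries, most with tamoxifen. The epithelial list summed to 7611 in vehicle, 3812 and 3174 with estradiol, 5267 and 7078 with tamoxifen, and 7133 and 7712 with the combination. Of its 14 genes, 1 rose and 4 fell with estradiol against vehicle. With tamoxifen 2 rose and 4 fell, and with the combination 2 rose and 3 fell, beside the shares of all tested genes given above. The vehicle library therefore also had the highest sums of stroma, smooth muscle and endothelium, and the part of these differences in cell content in the results on interferon-stimulated genes was not tested.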

How the data were processed

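The authors deposited 1 table of FPKM values for the 7 libraries of total RNA; the submitters' processing notes name CASAVA, Bowtie and Cufflinks, and as build only hg19, although the symbols are those of mouse genes, so no gene coordinates were taken from it. The sources used here do not say how fragments shared between similar genes were assigned. FPKM values were used without further scaling, with a filter of at least 1 in at least 1 library (12314 of 24353 genes), as log2(FPKM + 1), a scale that understates changes of low genes. Differences were fitted with limma 3.58.1 (trend, R 4.3.3) over all 7 libraries and 4 groups (3 residual and 3.27 prior degrees of freedom), with Benjamini-Hochberg adjustment over all tested genes and a threshold of 0.05; the code was tested on simulated data. Vehicle has 1 library, so its spread is assumed to equal that of the other groups, whose p values rest on the spread between 2 mice each. The labels give no batch. Motifs and figures used Python 3.11.15, numpy 2.4.6, pandas 2.3.3 and matplotlib 3.10.9, with RefSeq promoters of GRCm38.p6. The members and lists were chosen with earlier results of these data known. Values in every library are given for the 3 members of highest mean FPKM per role, the 8 of lowest p between treated groups, and those negative against vehicle in at least 2 of the 3 comparisons; other members, and up to 4 pathway genes per role by lowest p, are named with fewer values. Results on some pathway genes are not reported here. A few further members, pathway genes and markers were named after their values were seen. Alternatives were median-of-ratios and quantile scaling, no filter, a filter in 2 libraries, a pseudocount of 0.1, a replicate block, each treated library left out, and a fit of the compared groups alone.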

Additional observations from a re-analysis of the deposited data

How the results depend on the processing

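The counts of called members against vehicle stayed within 1.5 times their value under every alternative tried: 26 to 34 for tamoxifen (31), 30 to 37 for estradiol (36) and 26 to 37 for the combination (34), and 19 to 24 for tamoxifen against estradiol (22). For the combination against tamoxifen the 7 calls became 4 with no filter and 2 with the replicate block, and 0 to 8 with single libraries left out. For the combination against estradiol the 24 calls became 11 to 24 with single libraries left out. The mouse numbers do not pair the groups: the differences between mouse 1 and mouse 2 correlated across genes at -0.403 between estradiol and tamoxifen, -0.182 between estradiol and the combination, and 0.273 between tamoxifen and the combination. With the replicate block, 178 of 199 single-gene values kept their call and direction, and with combination library 1 or 2 left out 158 did in each case. Some values that passed the threshold in neither fit changed sign. With median-of-ratios scaling these were Ifitm1, Ifitm3 and Trim25 with estradiol (-0.06, -0.16 and -0.05), Isg20 with tamoxifen (0.13) and Samhd1 with the combination (0.16). With quantile normalization they were Isg20 with tamoxifen (0.05) and Samhd1 with the combination (0.12). With either library of the group left out, the ranges were -0.30 to 0.51 for Ifitm1 and -0.39 to 0.39 for Ifitm3 with estradiol, -0.18 to 0.09 for Isg20 and -1.06 to 0.29 for Cxcl10 with tamoxifen, and -0.11 to 0.09 for Samhd1 with the combination. The cause was not tested. The vehicle library could not be left out, and no alternative bears on whether it represents its group. At 35.1 to 41.8 fragments per FPKM over 2 kb, the vehicle values of Oas3, Mx1, Ifit3 and Iigp1 rest on few fragments, and with a pseudocount of 0.1 Ifit3 with tamoxifen came to 1.14 (adjusted p = 0.0363, limma) and Mx1 with estradiol to 2.83 (0.0248).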
